A study of Homo sapiens with 6 samples.

Results

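The cadherins that join cells to one another, with a pair of the catenins that bind them, were examined by RNA sequencing of WT H1 cells and of H1 cells labelled as SNAI1 knockouts. The 10 genes were CDH1, CDH2, CDH3, CDH4, CDH5, CDH6, CDH11 and CDH13, and the catenin genes CTNND1 and CTNNA1. They were chosen by gene symbol from knowledge of the family, with earlier results of these data known. All 10 were found among the 37892 symbols that could be matched between the deposited tables. H1 is a human embryonic stem cell line, and cells of every group were collected at day 2 of hematopoietic differentiation, in medium to which the labels say activin A (40 ng/ml) and BMP4 (50 ng/ml) were added. The study's methods give these doses the other way round. There were 3 groups with 2 libraries each, namely WT cells and SNAI1-deleted cells that the titles divide by a leading number, here SNAI1_KO_1 and SNAI1_KO_2. Per the study, frameshift mutations were made and more than one knockout line was kept for each deleted gene, and the leading numbers were not matched to lines. The labels do not say that libraries of a group came from separate cultures, so p-values measure only the spread between these samples. Values are FPKM, fragment counts scaled by transcript length and by sequencing depth, and each of the 2 tables holds 1 library of every group. The tables were normalized separately, so knockout and WT libraries are compared within a table, and both knockout groups are compared with the same WT libraries.

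Classical cadherins are transmembrane proteins that bind the same cadherin on a neighbouring cell through their extracellular repeats and hold p120-catenin, β-catenin and, through it, α-catenin on their cytoplasmic tail. E-cadherin is the cadherin of epithelia and of pluripotent stem cells, and N-cadherin and cadherin-11 are typical of mesenchymal cells. The loss of the former together with a gain of the latter is called the cadherin switch, and it accompanies the epithelial-mesenchymal transition through which mesoderm forms. SNAI1 encodes a zinc-finger repressor that binds E-box sequences, among them those in the promoter of CDH1.

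Because the E-box is the sequence through which SNAI1 is known to act, the 250 bases before each member's annotated start were read from the RefSeq promoter table (GRCh38.p14) and searched for CACCTG and CAGGTG, the same E-box read on either strand. Of the 10 members, CDH2, CDH4 and CTNNA1 had promoters in the table, with 8 windows in all, while CDH1, CDH3, CDH5, CDH6, CDH11, CDH13 and CTNND1 were not matched. A window of CDH4 was the only one of the 8 with a match, and 17.5% of all 35116 windows of this length held one. The window of CDH4 (chr20:61499171-61499420, plus strand) is shown with the E-box in capitals, its first base 16 bases before the start, beside a window of CDH2 (chr18:28177131-28177380, minus strand), which has none. These matches are a description of letters and not of binding.
CDH4: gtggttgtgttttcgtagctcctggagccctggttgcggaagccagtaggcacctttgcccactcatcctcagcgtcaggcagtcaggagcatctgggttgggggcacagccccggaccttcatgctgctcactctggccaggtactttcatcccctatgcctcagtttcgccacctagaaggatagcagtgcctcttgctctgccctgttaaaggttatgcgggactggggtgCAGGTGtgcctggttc
CDH2: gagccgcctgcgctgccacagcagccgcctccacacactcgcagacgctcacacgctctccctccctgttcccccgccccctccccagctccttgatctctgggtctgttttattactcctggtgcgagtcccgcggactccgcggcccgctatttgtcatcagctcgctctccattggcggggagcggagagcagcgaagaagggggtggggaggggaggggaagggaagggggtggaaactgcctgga

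FPKM summed to between 603399 and 633851 per library, and 13626 to 14164 symbols per library were at or above 1 FPKM. Absolute depth is unknown, and the depth of a knockout library was estimated at 0.877 to 1.11 times that of WT in its table. SNAI1 itself measured 37.1 and 36.4 FPKM in WT, and it was higher in all 4 libraries labelled as knockout, at 47.8 to 68.6 FPKM. Its log2 difference was 0.58 ± 0.074 (SE; adjusted p = 0.00461, limma), with an adjusted p of 0.0763 without the table term. The mRNA level is thus no check of the deletion, since a frameshifted gene can still be transcribed. Per the study, the frameshifts of its knockout lines were verified by sequencing. Every direction here is that of the libraries as labelled. Of 8 mesoderm markers, all were at or above 1 FPKM in every library, with a summed level of 1565 to 1622 FPKM in WT and 1062 to 1142 FPKM in the knockout libraries. They did not move one way, since 5 were lower and 1 was higher by limma, beside 15.4% and 15.8% of all genes. The higher one was TBXT (named T in the tables), the brachyury gene. It measured 17.8 and 38.7 FPKM in WT and 129.6 to 251.3 FPKM in the knockout libraries. The 8 pluripotency markers summed to 1002 to 1071 FPKM in WT and 1218 to 1443 FPKM in the knockout libraries, with 3 higher (POU5F1, NANOG and DPPA4) and 0 lower by limma, a share of 37.5% beside 31.3% of all genes, and 1 of the 3 (NANOG) passed without the table term. The 8 definitive endoderm markers summed to 2834 to 3345 FPKM in WT and 1273 to 1929 FPKM in the knockout libraries, of which CER1 alone gave 2550 to 3262 and 976.9 to 1797 FPKM. Of the 7 tested, 2 were higher and 3 lower by limma, beside 15.8% and 15.4% of all genes. FOXA1 was among the higher ones and passed the filter on low values only through the knockout libraries. Without it, 1 was higher and 3 were lower among 6 tested. The liver gene TTR was listed at 0 in all libraries. The 8 endothelial markers summed to 80.0 to 86.0 FPKM in WT and 51.8 to 62.5 FPKM in the knockout libraries. Of the 4 tested, 0 were higher and 2 lower (KDR and EGFL7) by limma, beside 15.8% and 15.4% of all genes. Without the table term, 0 of these calls held. The amnion and trophoblast list reached 29.4 to 45.8 FPKM in WT and 37.5 to 61.2 FPKM in the knockout libraries. Of its 4 tested genes, 3 were higher (TFAP2A, CDX2 and GABRP) and 1 was lower (GATA3) by limma, beside 15.8% and 15.4% of all genes. GABRP passed the filter on low values only through the knockout libraries, which leaves 2 higher among 3 tested. TFAP2A and CDX2 still passed without the table term. The neural list reached 82.4 to 97.7 FPKM in WT and 54.8 to 76.2 FPKM in the knockout libraries. OTX2 alone gave 79.6 and 93.2 FPKM of this in WT and 50.2 to 73.7 FPKM in the knockout libraries. It did not pass (adjusted p = 0.0927, limma), and 5 of the 8 neural genes were below 1 FPKM in every library. Of the 2 tested, 1 was higher (SOX10) and 0 lower by limma, beside 15.8% and 15.4% of all genes. SOX10 did not pass without the table term. The mesoderm, pluripotency, endoderm, endothelial and neural sums did not overlap between WT and the knockout libraries and the amnion and trophoblast sum did, and their part in the differences of the cadherins described next was not tested. In bulk libraries, a smaller share of a cell type and less RNA per cell cannot be told apart.

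The cadherins changed in a selective way. CDH1 and CDH3, which encode the epithelial E- and P-cadherins, rose 4.88- to 7.84-fold and 1.96- to 2.31-fold in the knockout libraries over WT of the same table. CDH11, the mesenchymal cadherin-11, fell to 10.2% to 27.4% of WT. CDH2, which encodes N-cadherin, measured 0.910 to 1.21 times WT and did not pass the test. Of the 9 members that were tested, 6 passed an adjusted p of 0.05 for both knockout groups against WT, 4 of them higher (CDH1, CDH3, CDH6 and CDH13) and 2 lower (CDH4 and CDH11). CDH6 passed the filter on low values only through the knockout libraries, where it was higher, and without it the count was 5 of 8, with 3 higher. Among all 13961 genes tested, 31.3% passed, 15.8% higher and 15.4% lower. The median log2 difference of the tested members was 0.12, and that of all genes was -0.050. In 5 members (CDH1, CDH3, CDH6, CDH11 and CDH13) all 4 knockout libraries lay on one side of both WT libraries, as did 34.1% of all genes. Without the table term, 3 of the 6 members still passed (CDH1, CDH11 and CDH13, with adjusted p values of 0.00685, 0.0182 and 0.0294), and CDH3, CDH4 and CDH6 did not, with values of 0.0775, 0.375 and 0.162.

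**Figure D1:**
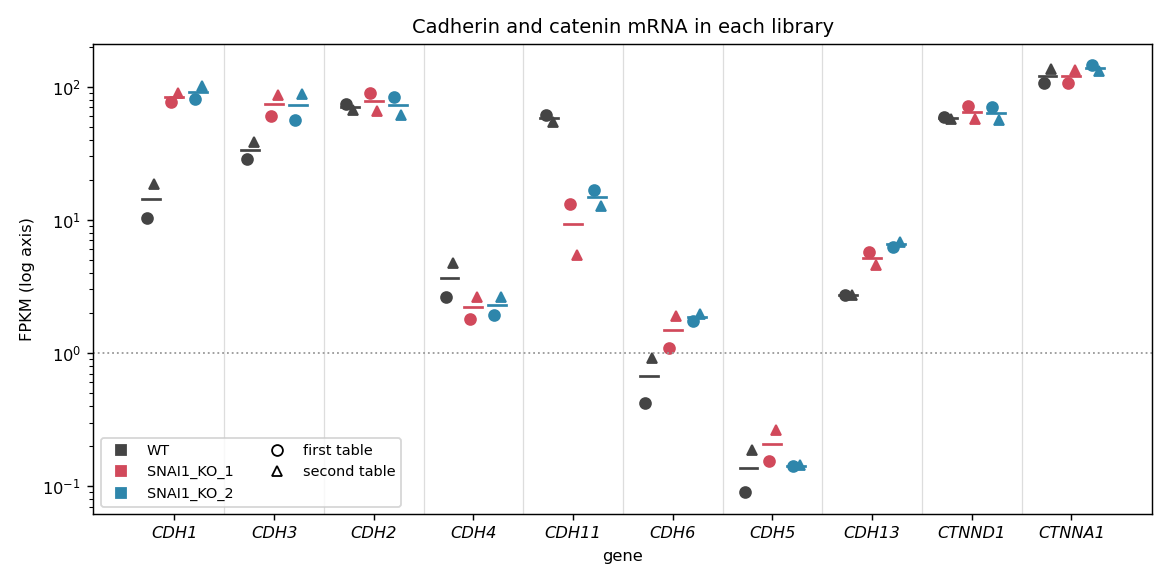
FPKM of the 10 members in each of the 6 libraries on a log axis, with points for single libraries coloured by group and shaped by table, short lines for group means (n = 2) and a dotted line at 1 FPKM. CDH1 sits at 10.3 and 18.5 FPKM in WT and at 76.6 to 100.4 FPKM in the knockout libraries, while CDH11 lies at 54.0 and 61.5 FPKM in WT and at 5.48 to 16.9 FPKM in the knockout libraries.

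CDH1 encodes E-cadherin, which seals epithelial sheets and holds colonies of pluripotent cells together. In the first table its level was 10.3 FPKM in WT, 76.6 FPKM in SNAI1_KO_1 and 80.7 FPKM in SNAI1_KO_2. In the second table it was 18.5 FPKM in WT, 90.1 FPKM in SNAI1_KO_1 and 100.4 FPKM in SNAI1_KO_2. The lowest knockout library was thus far above the highest WT library, and the groups did not overlap. Group means (SD, n = 2 each) were 14.4 ± 5.78 FPKM for WT, 83.4 ± 9.55 FPKM for SNAI1_KO_1 and 90.6 ± 14.0 FPKM for SNAI1_KO_2. On the log2(FPKM + 1) scale the difference of both knockout groups from WT was 2.56 ± 0.12 (SE), with a 95% interval from 2.25 to 2.87 and, by limma, an adjusted p of 0.000289. Each knockout group passed alone, with differences of 2.5 for SNAI1_KO_1 and 2.62 for SNAI1_KO_2. CDH1 passed in 16 of 16 alternative settings, and its adjusted p ranged from 1.0e-04 to 0.0177.

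CDH3 encodes P-cadherin, which many epithelia hold beside E-cadherin, and its gene lies directly before CDH1 on the same chromosome. Each table lists CDH3 on 2 rows, which were summed, and one row held nearly all of the level. The summed level was 28.5 FPKM in WT, 59.9 FPKM in SNAI1_KO_1 and 55.8 FPKM in SNAI1_KO_2 in the first table. In the second table it was 38.5, 87.1 and 88.8 FPKM in the same order. Every knockout library was above both WT libraries, although the tables differed from each other in level. The log2 difference was 1.08 ± 0.067 (SE; adjusted p = 0.000518, limma), with 1.10 for SNAI1_KO_1 and 1.06 for SNAI1_KO_2, each past the threshold alone and in 14 of 15 alternative settings. Without the table term neither group passed (adjusted p of up to 0.140).

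The genes around this pair were placed by their order in RefSeq. On the CDH3 side, ZFP90 (log2 difference 0.11, adjusted p = 0.650) did not pass by limma, SMPD3 was below the filter, and PRMT7, an arginine methyltransferase gene, fell by 0.37 on the log2 scale (adjusted p = 0.0105). On the CDH1 side, TANGO6 (-0.034, adjusted p = 0.854) and CHTF8 (-0.12, adjusted p = 0.176) did not pass by limma. HAS3, which encodes a hyaluronan synthase and lies between these, rose from 0.446 to 4.63 and 3.98 FPKM in the first table, and from 1.42 to 6.50 and 9.12 FPKM in the second. The HAS3 difference was 1.86 ± 0.16 (SE; adjusted p = 0.00117, limma), and its WT mean of 0.934 FPKM was below the filter's minimum, so it was tested only through its knockout libraries. A rise was therefore not shared by every neighbour of CDH1.

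CDH2 encodes N-cadherin, the cadherin that mesoderm and neural tissue take up in the cadherin switch. Its level was 73.9 FPKM in WT, 89.3 FPKM in SNAI1_KO_1 and 83.7 FPKM in SNAI1_KO_2 in the first table. In the second table it was 67.1, 65.4 and 61.0 FPKM in the same order. Knockout libraries were thus above WT in the first table and below it in the second, and the groups overlapped. The log2 difference was 0.07 ± 0.081 (SE), with a 95% interval from -0.14 to 0.27 (0.910 to 1.21 as a fold of FPKM + 1) and, by limma, an adjusted p of 0.557. CDH2 passed in 0 of 16 alternative settings, with an adjusted p of at least 0.106, and its difference changed sign to -0.086 when the first table's WT library was left out. A change in CDH2 beyond this interval was therefore not detected, which does not show that its level was equal.

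CDH11 encodes cadherin-11, also called OB-cadherin, which is typical of mesenchyme. In WT it measured 61.5 FPKM in the first table and 54.0 FPKM in the second, close to CDH2 in the same libraries. In SNAI1_KO_1 it measured 13.2 and 5.48 FPKM, and in SNAI1_KO_2 it measured 16.9 and 12.8 FPKM. All 4 knockout libraries lay well below both WT libraries. CDH11 fell by 2.26 ± 0.20 (SE) on the log2 scale, with a 95% interval from -2.76 to -1.76 and, by limma, an adjusted p of 0.00137. SNAI1_KO_1 differed from WT by -2.61 and SNAI1_KO_2 by -1.90, and each passed alone. Over both knockout groups and for SNAI1_KO_1 alone CDH11 passed in 16 of 16 alternative settings, with an adjusted p of up to 0.0357 and 0.0473. For SNAI1_KO_2 alone it passed in 13 of 16, with an adjusted p of 0.0541 without the table term, 0.0640 without the filter and 0.0543 when the first table's SNAI1_KO_2 library was left out. Its level was higher in SNAI1_KO_2 than in SNAI1_KO_1 in both tables, by 0.71 on the log2 scale, and this difference did not pass in limma (unadjusted p = 0.0247, adjusted p = 0.9996).

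CDH4, CDH6 and CDH13 were measured at low levels, where the pseudocount compresses a difference. CDH4 encodes R-cadherin, known from retina and brain. It measured 2.61 FPKM in WT, 1.81 FPKM in SNAI1_KO_1 and 1.92 FPKM in SNAI1_KO_2 in the first table, and 4.74, 2.65 and 2.65 FPKM in the second. It was lower than WT within each table, but the second table's knockout libraries were above the WT library of the first. Over both knockout groups CDH4 fell by 0.49 ± 0.13 on the log2 scale (SE; adjusted p = 0.0422, limma), and neither group passed alone (0.0686 and 0.0753). The call held in 6 of 15 alternative settings, with an adjusted p of up to 0.375.

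CDH6 encodes K-cadherin, known from kidney and from neural crest. It measured 0.418 FPKM in WT, 1.09 FPKM in SNAI1_KO_1 and 1.75 FPKM in SNAI1_KO_2 in the first table, and 0.921, 1.88 and 1.97 FPKM in the second. Both WT libraries were below 1 FPKM, so CDH6 passed the filter on low values only through its knockout libraries. Its log2 difference was 0.68 ± 0.16 (SE; adjusted p = 0.0260, limma), with SNAI1_KO_2 past the threshold alone and SNAI1_KO_1 not (0.0298 and 0.0750). The call held in 7 of 15 alternative settings, with an adjusted p of up to 0.162, and that of SNAI1_KO_2 alone in 6 of 15.

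CDH13 encodes a cadherin without the cytoplasmic tail, which is anchored to the membrane by a lipid and is known from endothelium and heart. It is thus not a classical cadherin, and it cannot hold catenins directly. Its level was 2.71 and 2.73 FPKM in WT, 5.70 and 4.60 FPKM in SNAI1_KO_1, and 6.26 and 6.85 FPKM in SNAI1_KO_2, in the first and second table. The WT libraries were nearly equal and all knockout libraries were above them. The log2 difference was 0.87 ± 0.12 (SE; adjusted p = 0.00569, limma), with 0.72 for SNAI1_KO_1 and 1.02 for SNAI1_KO_2, each past the threshold alone. CDH13 did not pass when the first table's WT library was left out (adjusted p = 0.0640, limma) or that of the second (adjusted p = 0.0555), and it passed in 13 of 15 alternative settings, with 9 of 15 for SNAI1_KO_1 alone and 11 of 15 for SNAI1_KO_2 alone.

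CDH5 encodes VE-cadherin, which defines endothelial junctions, and it was the lowest of the members in all 6 libraries. It measured 0.0896 to 0.186 FPKM in WT, 0.154 to 0.262 FPKM in SNAI1_KO_1 and 0.141 to 0.144 FPKM in SNAI1_KO_2, below the filter. In the alternative without a filter its log2 difference was 0.046 (adjusted p = 0.628, limma). PECAM1, another gene of endothelial junctions, was also below 1 FPKM in every library, as were 4 of the 8 endothelial markers in all. Against these, 3 of the 8 were at or above 1 FPKM in every library. They were KDR at 36.2 to 62.9 FPKM, EGFL7 at 11.8 to 21.4 FPKM and TEK at 1.85 to 2.41 FPKM. VE-cadherin mRNA was thus below 1 FPKM in every group.

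**Figure D2:**
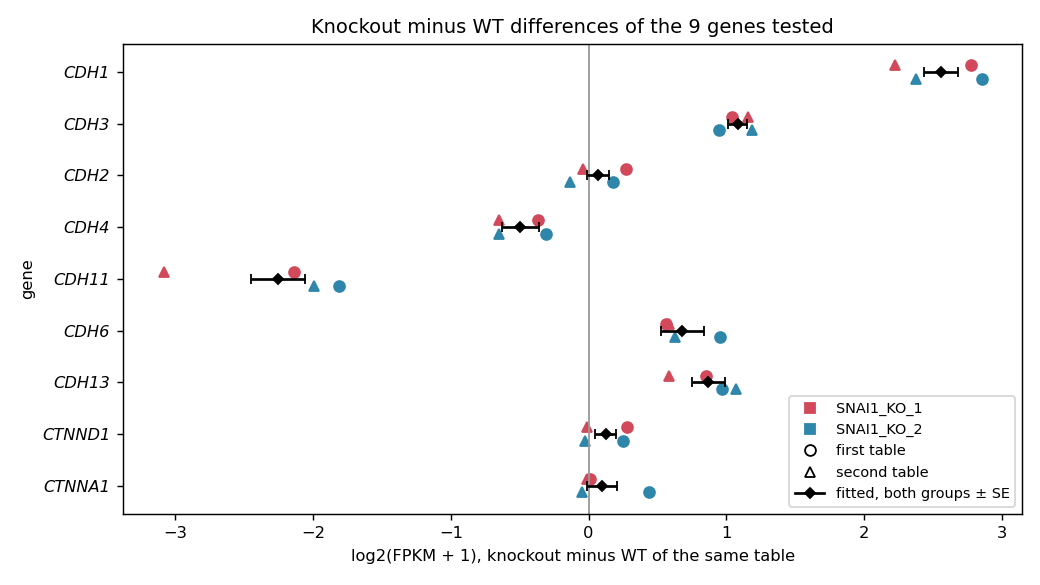
Difference between each knockout library and the WT library of its own table on the log2(FPKM + 1) scale, for the 9 tested members (colour for the group, shape for the table), with the fitted difference of both knockout groups as a diamond and its SE as bars. CDH1 (2.56) and CDH3 (1.08) lie to the right of 0 in all 4 libraries, CDH11 (-2.26) lies to the left in all 4, and the libraries of CDH2 fall on both sides.

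The catenins did not pass. CTNNA1, which encodes αE-catenin, the link from the cadherin complex to actin, was the highest member in all 6 libraries. It measured 106.1 FPKM in WT, 106.7 FPKM in SNAI1_KO_1 and 144.5 FPKM in SNAI1_KO_2 in the first table, and 134.9, 133.6 and 130.7 FPKM in the second. Of these, the SNAI1_KO_2 library of the first table was the highest, and the groups overlapped. The log2 difference was 0.098 ± 0.11 (SE), with a 95% interval from -0.18 to 0.38 and, by limma, an adjusted p of 0.544. CTNND1, which encodes p120-catenin, the catenin that keeps cadherins at the surface, measured 58.8, 71.6 and 70.1 FPKM in the first table and 57.1, 56.8 and 56.2 FPKM in the second, in the order WT, SNAI1_KO_1 and SNAI1_KO_2. The libraries of the second table were close to one another, and those of the first were not. The log2 difference was 0.12 ± 0.077 (SE), with a 95% interval from -0.071 to 0.32 and, by limma, an adjusted p of 0.275. Transcripts that overlap these genes were low, with TMX2-CTNND1 at 0 to 0.543 FPKM and LRRTM2, which lies within CTNNA1, at 0.0475 to 0.276 FPKM. The sources used here do not say whether counting used strand.

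The balance between E- and N-cadherin was taken as the ratio of CDH1 to CDH2 FPKM in each library, since FPKM is scaled by length and a pair of genes of one library can be set side by side. The ratio was 0.139 in WT, 0.858 in SNAI1_KO_1 and 0.963 in SNAI1_KO_2 in the first table. In the second table it was 0.275 in WT, 1.38 in SNAI1_KO_1 and 1.65 in SNAI1_KO_2. N-cadherin mRNA was thus the larger in both WT libraries, and both genes were at similar levels in the knockout libraries of the first table, with CDH1 the larger in those of the second. The mean ratio (SD, n = 2 each) was 0.207 ± 0.096 for WT, 1.12 ± 0.37 for SNAI1_KO_1 and 1.30 ± 0.48 for SNAI1_KO_2. Within a table the ratio rose 5.0- to 6.92-fold over WT in the 4 knockout libraries, with a mean difference of 2.58 on the log2 scale (5.98-fold). An exact two-sided permutation test over the 9 arrangements of libraries within tables gave p = 0.111, the smallest p this design allows, so 0.05 cannot be reached. Adjusted over the 5 ratios computed, p was 0.139. Within the same libraries CDH1 alone was 4.88 to 7.84 times WT and CDH2 0.910 to 1.21 times WT.

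Ratios to CDH11 were computed in the same way. The CDH1 to CDH11 ratio averaged 0.255 ± 0.12 (SD, n = 2) for WT, 11.1 ± 7.52 for SNAI1_KO_1 and 6.32 ± 2.17 for SNAI1_KO_2, 22.9- to 48.0-fold above WT of the same table. The CDH2 to CDH11 ratio, which sets a pair of mesenchymal cadherins against each other, was 1.22 ± 0.029 in WT, 9.34 ± 3.66 in SNAI1_KO_1 and 4.87 ± 0.14 in SNAI1_KO_2. These cadherins, nearly level in WT, were thus far apart in every knockout library, by 3.84- to 9.59-fold more than in WT of the same table. The CDH1 to CDH3 ratio rose 2.15- to 4.01-fold, and in both WT libraries CDH3 was above CDH1 whereas in the knockout libraries CDH1 was above CDH3. For these 3 ratios the exact permutation p was again 0.111 (0.139 adjusted). The CTNNA1 to CTNND1 ratio, 0.827 to 1.14 times that of WT, gave an exact permutation p of 0.778.

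**Figure D3:**
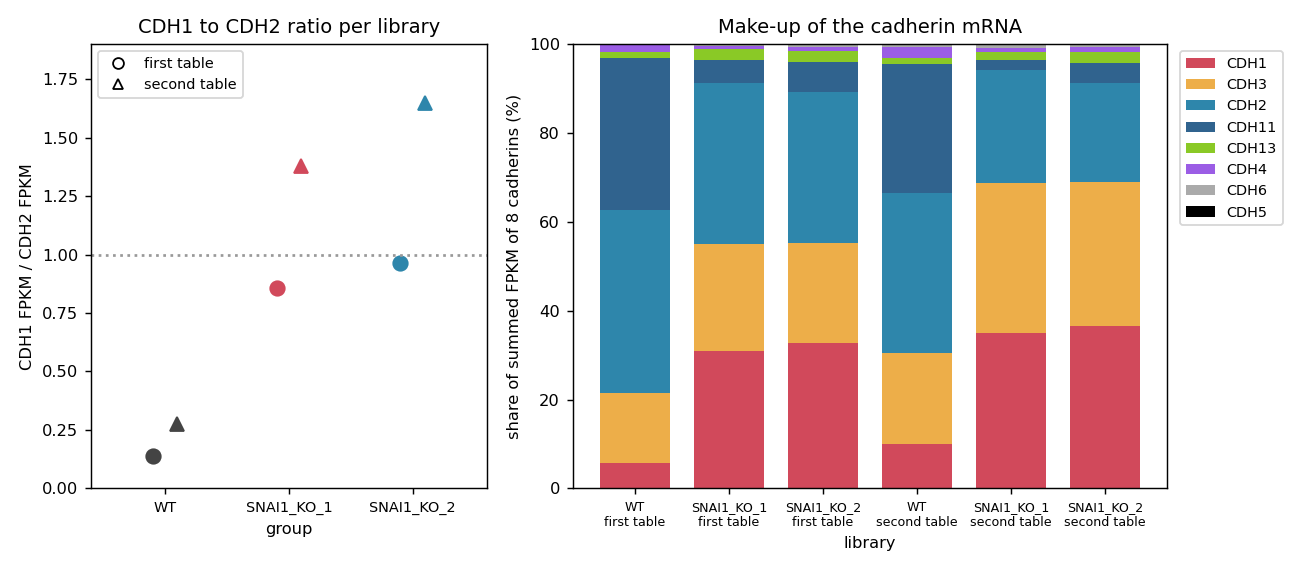
Left, the ratio of CDH1 to CDH2 FPKM in each library (linear axis, dotted line at 1, colour for the group and shape for the table), and right, the share of each cadherin in the summed FPKM of the 8 cadherins in each library, in percent. The ratio is 0.139 and 0.275 in WT and 0.858 to 1.65 in the knockout libraries, and CDH11 takes 31.6% of the sum in WT on average.

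Summed over the 8 cadherin genes among the members, FPKM was 180.1 and 186.6 in WT and 247.1 to 274.6 in the knockout libraries. CDH24, described below, is not in this sum, and at 15.4 and 25.8 FPKM it was above CDH1 in both WT libraries. In WT, CDH2 took the largest share of this sum (38.5% ± 3.60), followed by CDH11 (31.6% ± 3.70), CDH3 (18.2% ± 3.38) and CDH1 (7.81% ± 2.96; SD, n = 2). In the knockout groups the share of CDH1 was 33.0% ± 2.88 and 34.6% ± 2.78, that of CDH2 30.7% ± 7.52 and 28.1% ± 8.25, and that of CDH3 29.0% ± 6.83 and 27.5% ± 6.89, for SNAI1_KO_1 and SNAI1_KO_2. Within the first table CDH2 kept the largest share in the knockout libraries (36.0% and 33.9%, against 30.9% and 32.6% for CDH1), and within the second CDH1 had the largest (35.0% and 36.6%, against 25.4% and 22.2% for CDH2). CDH11 kept 3.73% ± 2.27 and 5.74% ± 1.53. The other 4 cadherins each took at most 2.51% on average in any group.

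The knockout groups were also tested singly and against each other. SNAI1_KO_1 against WT called 4 of the 9 tested members (CDH1, CDH3 and CDH13 higher, CDH11 lower), where 23.9% of all genes were called. SNAI1_KO_2 against WT called 5 (the same 4 and CDH6), where 25.5% of all genes were called, 13.5% higher and 12.0% lower. These contrasts share the WT libraries, and a call in one group alone does not show that the groups differ. Between the knockout groups, limma called 0 of the 9 members and 0 of all 13961 genes, with 519 genes at an unadjusted p under 0.05 and a smallest adjusted p of 0.324.

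Of 11 other genes for classical and type II cadherins, 8 were below the filter, from 0 to 1.27 FPKM, and 3 were tested. CDH24 was the highest of them, at 14.8 to 26.4 FPKM over the 6 libraries, and it did not pass. CDH22, a cadherin gene known from brain, was the only one called. It measured 4.25 FPKM in WT, 0.398 FPKM in SNAI1_KO_1 and 0.333 FPKM in SNAI1_KO_2 in the first table, and 6.11, 0.983 and 0.676 FPKM in the second. All knockout libraries were below both WT libraries and below 1 FPKM, at 7.82% to 16.1% of WT, so CDH22 passed the filter on low values only through WT. CDH22 fell by 1.95 ± 0.14 on the log2 scale (SE; adjusted p = 0.000725, limma, and 0.0111 without the table term).

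Genes for other proteins of the cadherin complex and of adherens junctions moved in both directions. Of 17 listed partners, 15 were tested, 7 were higher and 4 lower, beside 15.8% and 15.4% of all genes, with a median log2 difference of 0.25. VCL encodes vinculin, which strengthens the link to actin under tension, and it rose from 50.3 and 62.4 FPKM in WT to 100.9 to 118.4 FPKM in the knockout libraries (0.92 ± 0.066, SE; adjusted p = 0.000779, limma). LIMA1, which encodes an actin-binding partner of α-catenin, rose by 0.72, ARVCF, a relative of p120-catenin, by 0.58, and CTNND2, the δ-catenin of neurons, by 0.57. NECTIN3, an adhesion molecule of adherens junctions, and PLEKHA7, which ties p120-catenin to microtubules, each fell by 0.65. CTNNB1, the gene of β-catenin, which binds the cadherin tail and was singled out after its values were seen, measured 107.5 to 135.3 FPKM in WT and 108.3 to 151.9 FPKM in the knockout libraries and did not pass (0.069, adjusted p = 0.323, limma). Without the table term, 1 of these 11 calls held (VCL, adjusted p = 0.0229).

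Of 10 genes for cadherin shedding and turnover, all were tested, 0 were higher and 1 was lower, beside 31.3% of all genes in either direction, with a median log2 difference of -0.11. The gene called was DAB2, which encodes an endocytic adaptor, and it fell by 0.69 ± 0.11 (SE; adjusted p = 0.00822, limma), a call lost without the table term (adjusted p = 0.159).

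Other members of the cadherin superfamily changed in both directions as well. Of 25, 15 were tested, 7 were higher and 4 lower, beside 15.8% and 15.4% of all genes, with a median log2 difference of 0.063. Of the higher genes, 1 passed the filter on low values only through the knockout libraries, which leaves 6 higher among 14 tested. The largest rises were those of PCDH1, a protocadherin gene of epithelia (1.19), CLSTN3, a calsyntenin gene (1.09), and CELSR1, a gene of planar cell polarity (0.80). PCDH1 rose from 4.81 and 7.63 FPKM in WT to 13.4 to 17.7 FPKM in the knockout libraries. The largest falls were those of DCHS1, the partner of FAT4 in planar polarity (-1.31), and the protocadherin genes PCDH17 (-1.06) and PCDH7 (-0.76). DCHS1 fell from 9.82 and 12.3 FPKM in WT to 3.18 to 4.49 FPKM. Without the table term, PCDH1, DCHS1 and PCDH17 were the 3 that still passed.

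Of 10 genes for transcription factors known to repress CDH1, 9 were tested, 1 was higher and 6 were lower, beside 15.8% and 15.4% of all genes, with a median log2 difference of -0.50. The one that was higher was SNAI1, described above. ZEB2 fell from 12.04 and 9.98 FPKM in WT to 3.10 to 5.79 FPKM in the knockout libraries (-1.16, adjusted p = 0.00297, limma). ZEB1 fell from 2.023 and 2.88 FPKM to 0.178 to 1.10 FPKM (-1.15, adjusted p = 0.00661, limma), and it passed the filter only through WT, which leaves 5 falls among 8 tested without it. TWIST1 (-0.86), SNAI2 (-0.55) and TCF4 (-0.47) also fell. TCF3, the highest of the list at 154.2 to 392.4 FPKM, did not pass (-0.041, adjusted p = 0.455, limma). SNAI3, below the filter, measured 0.143 and 0.280 FPKM in WT and 0.486 to 1.65 FPKM in the knockout libraries. The called repressor genes other than SNAI1 were thus lower, and CDH1 and SNAI1 mRNA higher, in the knockout libraries than in WT. Without the table term, 0 of the 7 calls held.

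**Figure D4:**
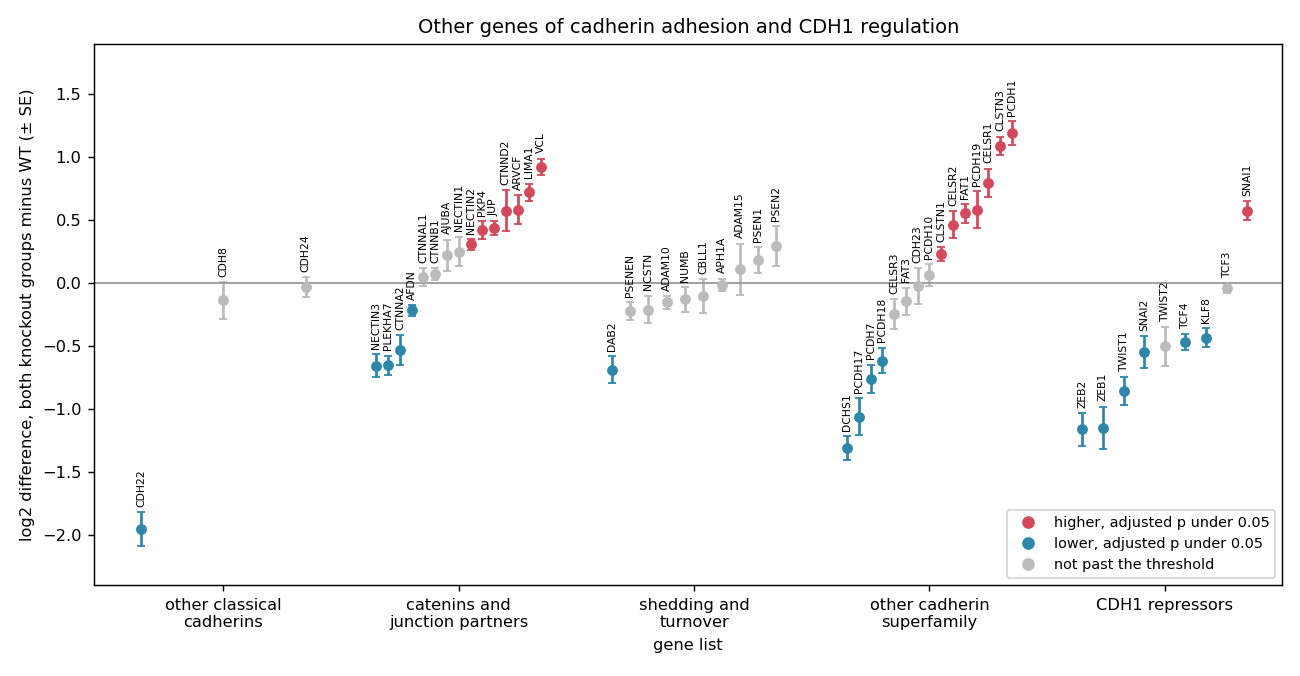
Fitted log2 difference of both knockout groups from WT (vertical axis, bars ± SE) for the tested genes of each list (horizontal axis), in red where higher and blue where lower at an adjusted p under 0.05 by limma, and grey otherwise. Of the 9 tested CDH1 repressors, 6 are blue, with ZEB2 at -1.16, and of the junction partners 7 are red and 4 blue.

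The genes whose pattern over the 6 libraries was most like that of CDH1 were found by Pearson's r of log2(FPKM + 1) after each table's mean was taken away. Among them were ITGA7, a laminin-binding integrin gene, SLC25A4, which encodes a mitochondrial nucleotide carrier, PCDH1 and the transcription factor gene JUN. ITGA7 had r = 0.9999, with 7.34 and 14.3 FPKM in WT and 24.2 to 38.8 FPKM in the knockout libraries. With 6 libraries such values are common, and 446 of 13960 genes had r above 0.99 with CDH1. CDH2 had fewer like it, 3 of 13960 above 0.99, led by PRDM14 (r = 0.996), SOX4 (0.995), YPEL1 (0.992), NTRK3 (0.987) and KIAA1456 (0.985). None of these 5 passed the test of knockout against WT (adjusted p of 0.553 or more, limma), and CDH2 gave 0.557 in that fit. They were chosen for likeness to CDH2 in the same libraries, so this outcome followed from the choice and is no separate result.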

How the data were processed

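The 6 libraries were made with an Illumina TruSeq RNA kit, and the study names companies as having run the sequencing. The deposited tables hold FPKM per gene symbol. A heading line of the second table names this unit, and the first holds the same kind of values without a name. The submitters' processing notes list BWA, Bowtie, RSEM and hg19 without roles or versions. The tables had 38100 and 58324 rows. Symbols found once in both (37803) were joined with 89 that were repeated equally often in both, whose rows were summed. The 13961 genes whose FPKM averaged 1 or more were tested on log2(FPKM + 1), a scale that understates changes of low genes. The fit used limma 3.58.1 (R 4.3.3), with 3 group means, a term for the table as replicate block and a mean-variance trend (residual degrees of freedom 2, prior 3.34). Tests were two-sided, and 0.05 was the threshold for p after Benjamini-Hochberg adjustment across the 13961 genes. The pairing comes from the shared tables, and differences between tables correlated with r = 0.617, 0.667 and 0.677 between groups, across genes, which are not independent replicates. Ratios were tested by exact permutation of libraries within tables.

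Depth is unknown, because FPKM carries no read totals, so no counting interval is given, and relative depth was estimated from the commonest ratio of low FPKM values between libraries of a table. The members and lists were chosen with earlier results of these data known. Every member was named. Of each list, up to 6 genes with the largest difference past the threshold were named, with the 5 genes most like CDH1 and CDH2 and the 3 nearest genes on each side of CDH3 and CDH1. Of these, 1 gene like CDH1 is not reported here. As alternatives, the fit was repeated without the block, with a pseudocount of 0.1 or 10, with a minimum mean of 5 FPKM or none (genes at 0 in every library left out), after median-ratio scaling or quantile normalization, without the trend, with each library left out and, chosen after seeing the data, the larger row of each repeated symbol or none. The fit was also run on simulated data with far fewer changed genes than were called here, which does not show its error rate in these data. Genome coordinates are those of the RefSeq promoter table and not of the build that the authors used.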

Additional observations from a re-analysis of the deposited data

How the results depend on the processing

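Of 140 alternative values for the 9 tested members, 116 kept direction and side of the threshold, 20 lost a call and 4 changed sign. The sign changes were CDH2 (-0.086), CTNND1 (-0.016) and CTNNA1 (-0.030) when the first table's WT library was left out, and CTNNA1 (-0.022) when its SNAI1_KO_2 library was. With 1 library left out, the log2 difference ranged up to 0.22 for CDH2, 0.26 for CTNND1 and 0.23 for CTNNA1, none of which passed with all libraries. Over both knockout groups, CDH1 and CDH11 lost no call under the alternatives run, and CDH11 for SNAI1_KO_2 alone lost it in 3 of 16. Without the replicate block, 1063, 577 and 698 genes were called for both knockout groups, SNAI1_KO_1 and SNAI1_KO_2 against WT, of which 72.0%, 75.6% and 74.6% were higher, beside 4364, 3338 and 3556 with the block, of which 50.6%, 54.4% and 53.0% were higher. Without a filter on low values 2146, 1013 and 1220 genes were called, of which 56.5%, 66.1% and 62.8% were higher, with more genes in both the fit and the adjustment. Leaving out 1 library gave 1721 to 2874, 974 to 2406 and 1166 to 2705 calls, with fewer samples in the fit. Leaving out the WT library of the second table gave the lowest count for both groups. The other settings stayed within 1.5 times of the main counts, although median-ratio scaling gave 59.1%, 62.4% and 60.8% higher for these contrasts in the same order. The knockout groups differed from each other at 0 genes by limma in every alternative run, and 82 to 1318 genes had an unadjusted p under 0.05. The mean log2 difference of the CDH1 to CDH2 ratio was 2.49 with a pseudocount of 1 and 2.45 to 2.71 with 1 library left out, and without the replicate block its exact permutation p was 0.0667, the smallest that design allows. The cause of these changes was not tested. With 2 libraries per group and no read totals, small differences in genes below about 1 FPKM, such as CDH5, were not detectable here.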
